A study of Mus musculus with 16 samples.

Results

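Glycosaminoglycan synthesis and sulfation enzymes were examined as a set of 39 genes, chosen by gene symbol from what is known of the pathway. Earlier results of these data were known when the set was chosen. All 39 were found among the 55414 Ensembl gene identifiers counted. The set holds 12 genes shared by the chondroitin and heparan branches, 16 genes of the chondroitin branch and 11 genes of the heparan branch. RNA-Seq was done on chondrocyte-enriched cells from the limb epiphyses of newborn mice, with 16 libraries in 4 groups of 4. Control cells from wild-type littermates received PBS vehicle or TNFα at 50 ng/ml, each for 6 h, and so did heterozygous *Notch2* tm1.1Ecan cells, and both genotypes were on a C57BL/6 background with male and female pups pooled. The *Notch2* tm1.1Ecan allele encodes a NOTCH2 that lacks its PEST domain and is stabilized, in every cell that expresses *Notch2*. Gene counts do not read that allele, so the genotype of a library could not be checked in this way. The labels place the removal of serum in the TNFα groups only, whereas the methods of the study describe the absence of serum for vehicle and TNFα alike. If the labels hold, TNFα and serum removal cannot be told apart. The libraries of a group are called biological replicates, with no word on which pups or cultures each came from, so a p-value measures the spread between these libraries.

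Sulfated glycosaminoglycans are chains of alternating sugars carried by proteoglycans, and they are built in the Golgi on a linkage region that begins with xylose. An N-acetylgalactosamine added next commits the chain to chondroitin or dermatan sulfate, and an N-acetylglucosamine commits it to heparan sulfate, after which polymerases, sulfotransferases and epimerases extend and modify it with an activated sulfate donor. In cartilage, chondroitin sulfate on aggrecan holds the water that lets the tissue bear load, and heparan sulfate binds growth factors around the chondrocyte.

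Counts assigned to genes were 18677402, 13471143, 15666781 and 17263040 in control vehicle libraries 1 to 4, and 12552727, 17336416, 16591463 and 19220459 in control TNFα libraries 1 to 4. For *Notch2* tm1.1Ecan cells the totals were 14781440, 19925916, 19382933 and 44237300 with vehicle and 14987109, 16968941, 17155897 and 3439726 with TNFα. Library 4 of the *Notch2* tm1.1Ecan TNFα group was thus the shallowest and library 4 of the *Notch2* tm1.1Ecan vehicle group the deepest. The 39 genes took 0.393, 0.393, 0.397 and 0.377% of the counts in control vehicle libraries and 0.317, 0.325, 0.319 and 0.335% in control TNFα libraries. Their share in *Notch2* tm1.1Ecan libraries was 0.360, 0.356, 0.366 and 0.370% with vehicle and 0.296, 0.307, 0.297 and 0.307% with TNFα.

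A pair of control libraries stood apart in a list of 8 genes induced by TNFα, of which *Icam1* was the most abundant. Its summed level was 128, 126, 141 and 944 CPM, which are counts scaled to library size, in control vehicle libraries 1 to 4 and 5333, 5551, 5874 and 4710.4 CPM in control TNFα libraries 1 to 4. Control vehicle library 4 was therefore far above the other vehicle libraries, and control TNFα library 4 was the lowest of the TNFα libraries. Sums in *Notch2* tm1.1Ecan libraries were 135, 146, 148 and 151 CPM with vehicle and 5270.4, 5196, 4993 and 5685 CPM with TNFα. Over all genes, on the first principal component of log2 CPM, control vehicle library 4 lay at -20.6 against -67.1 to -64.2 for the rest of its group, and control TNFα library 4 at 45.4 against 60.9 to 64.1. On the second component *Notch2* tm1.1Ecan TNFα library 4, the shallowest, lay at -93.4 against 1.29 to 1.95 for the rest of its group. Counts of members and several of the larger changes are also given without these control libraries, and the origin of their levels was not tested.

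The cells carried the markers of chondrocytes, although not those alone. All 10 genes of a chondrocyte list were detected, and their summed level in control vehicle libraries was 49854, 48197, 48229 and 45701 CPM, most of it *Col2a1* at 37601 ± 1614 CPM (SD, n = 4). A list of 8 fibroblast and perichondrium genes, led by *Col1a1*, stood at 34041, 32783, 31077 and 32042 CPM in the same libraries. *Col1a1* itself was at 13836 ± 752 CPM (SD, n = 4), so the cultures also expressed genes of other connective tissue cells at a high level. In bulk RNA, fewer cells of a type and less RNA per cell cannot be told apart.

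Levels were compared between genes as CPM per kilobase of exon. On that scale *Chpf*, a polymerizing factor of the chondroitin branch, was the most abundant member in each group, at 55.0 ± 4.71 CPM per kilobase in control vehicle cells (SD, n = 4). The sulfate donor synthase *Papss2* was the leading gene for donors, at 51.4 ± 1.73 CPM per kilobase in those cells, within the spread of *Chpf*, and *Xylt1* led the linkage genes at 33.1 ± 1.02 CPM per kilobase. *Chst14* led chondroitin sulfation and epimerization at 30.8 ± 1.39 CPM per kilobase, above *Chst11* at 20.8 ± 1.45 CPM per kilobase. In the heparan branch the leading genes in control vehicle cells were *Ndst1* for sulfation, at 22.2 ± 0.656 CPM per kilobase, and *Ext2* for polymerization, at 19.0 ± 0.294 CPM per kilobase, followed by its partner *Ext1* at 17.3 ± 0.422 CPM per kilobase. *Chst13* was close to the floor of detection, with at most 7 counts in any library. Exons of *B4galt7*, *B3galt6*, *Fam20b*, *Slc35b2*, *Csgalnact1*, *Chsy1*, *Chpf2*, *Chst7*, *Chst15*, *Extl1*, *Extl2*, *Hs2st1* and *Hs6st1* overlap those of a gene on the opposite strand. Since the strand setting of the counts is not stated, their levels are uncertain. Exons of *Ugdh* and *Glce*, and also of *Chpf2*, overlap those of a gene on the same strand, so their levels are uncertain under any strand setting.

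TNFα was compared with vehicle in each genotype to ask how the enzymes responded to the cytokine. In both genotypes most genes for sulfate and sugar donors and all 6 for chondroitin polymerization were lower with TNFα, and *Slc26a2*, *Chsy3* and *Chst11* fell furthest of the members above a few counts. *Chst15*, whose enzyme adds a further sulfate to chondroitin, rose 5.82-fold in control cells and 6.58-fold in *Notch2* tm1.1Ecan cells. The heparan branch had members called in both directions, as all genes tested did, with *Extl1* as its largest change. A gene was called when its edgeR adjusted p was under 0.05, calls near that limit being the least certain, and values given with an SE are log2 fold changes.

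In control cells 22 of the 38 members tested were lower with TNFα, where 20.9% of all 19338 genes tested were lower, and 5 were higher, where 23.3% of all genes were higher. Their median log2 fold change was -0.23 against 0.04 over all genes. Among the 12 shared genes 9 were lower and 0 higher, with a median of -0.42. The chondroitin branch had 8 lower and 3 higher of 15 tested, with a median of -0.25, and the heparan branch had 5 lower and 2 higher of 11, with a median of -0.12. Without both control libraries numbered 4, 26 members were lower and 7 higher, where 22.8% and 24.6% of 18523 genes were.

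In *Notch2* tm1.1Ecan cells 24 of the 39 members were lower with TNFα, where 21.9% of all 19633 genes tested were lower, and 4 were higher, where 22.6% were. The shared genes had 10 lower and 0 higher of 12, with a median log2 fold change of -0.44. The chondroitin branch had 11 lower and 2 higher of 16, with a median of -0.34, or -0.32 without *Chst13*, whose fold change rests on few counts. The heparan branch had 3 lower and 2 higher of 11, with a median of -0.05, and the median over all genes was 0.03. *Chst15*, *Ust*, *Extl1* and *Extl2* were called higher in both genotypes. The responses of both genotypes come from separate libraries, and the difference between them was tested as an interaction.

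**Figure D1:**
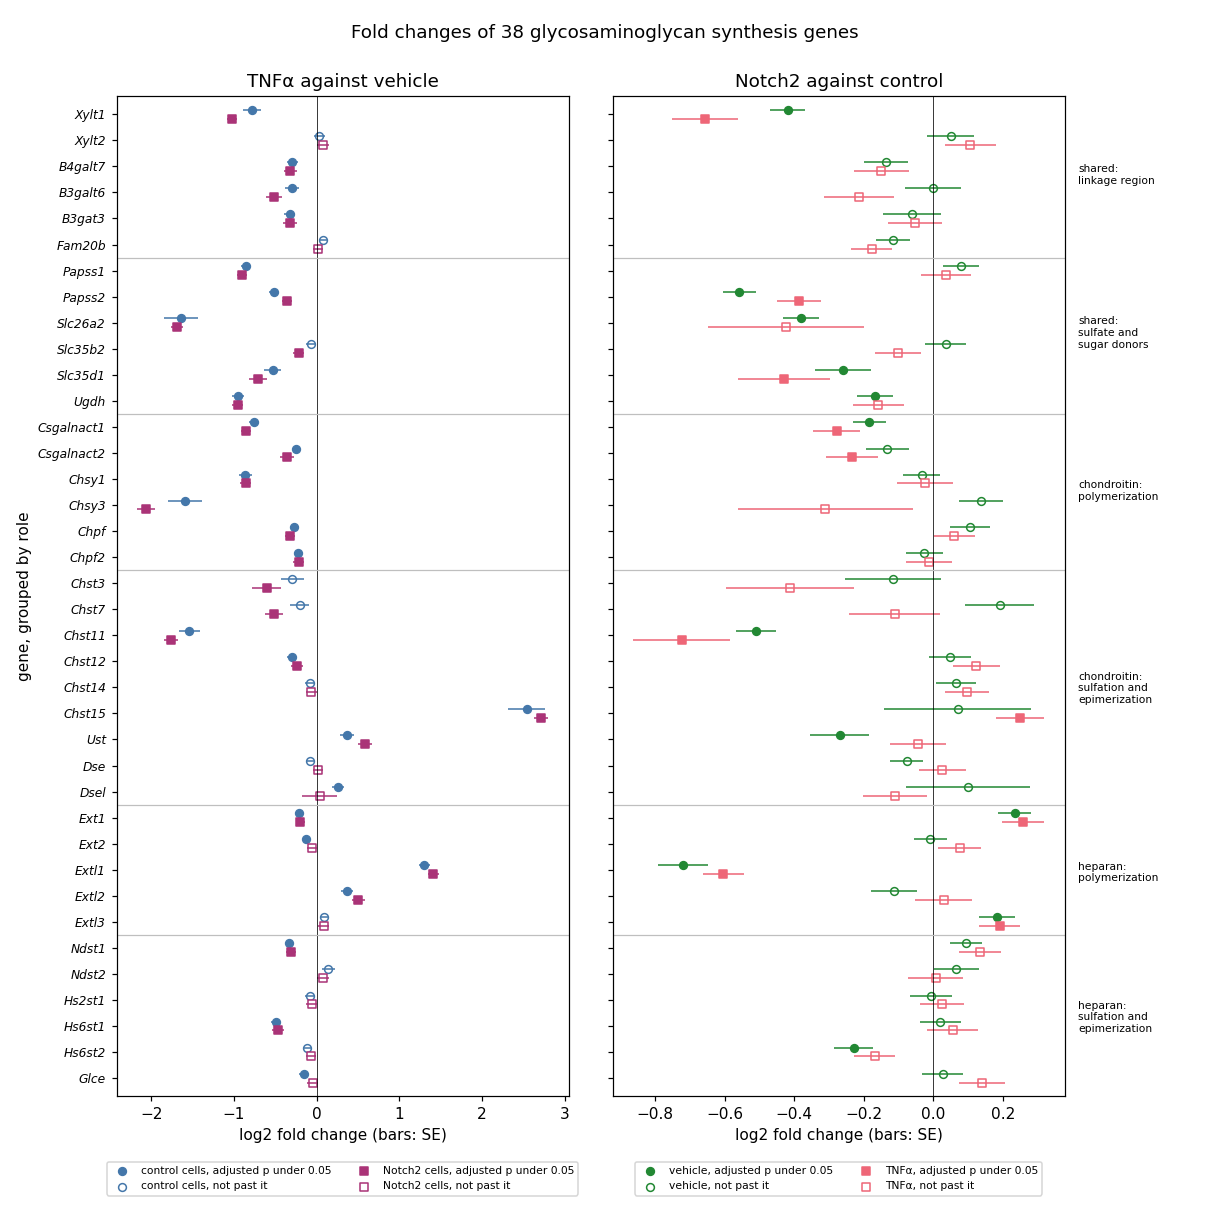
Log2 fold changes of 38 members, grouped by role, for TNFα against vehicle (left) and *Notch2* tm1.1Ecan against control (right), with bars for the SE and filled symbols for an edgeR adjusted p under 0.05; *Chst13*, with few counts, is not drawn. With TNFα, *Chst15* lies at 2.54 in control cells and 2.72 in *Notch2* tm1.1Ecan cells, and *Chsy3* at -1.59 and -2.07.

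The linkage region genes were lower or showed no call with TNFα. *Xylt1* (Ensembl ENSMUSG00000030657, chr7:116979979-117272803), which encodes a xylosyltransferase that starts chains, was the most abundant of them per kilobase except in *Notch2* tm1.1Ecan TNFα cells, where *Fam20b* was level with it. In control cells *Xylt1* measured 334, 336, 314 and 325 CPM with vehicle and 204, 163, 164 and 228 CPM with TNFα. The matching values in *Notch2* tm1.1Ecan cells were 245, 236, 232 and 261 CPM with vehicle and 118, 117, 124 and 118 CPM with TNFα. The 4 groups did not overlap, from control vehicle at the top through *Notch2* tm1.1Ecan vehicle and control TNFα to *Notch2* tm1.1Ecan TNFα, and control TNFα libraries 1 and 4 were above libraries 2 and 3. TNFα gave a log2 fold change of -0.78 (SE 0.11, edgeR adjusted p = 0.000583) in control cells and -1.03 (SE 0.06, edgeR adjusted p = 5.29e-14) in *Notch2* tm1.1Ecan cells. Of the other 5 linkage genes, 3 were lower in each genotype, with log2 fold changes between -0.33 and 0.08 in control cells and between -0.52 and 0.08 in *Notch2* tm1.1Ecan cells. These were *B4galt7*, *B3galt6* and *B3gat3*, which add the galactoses and the glucuronic acid of the linkage region, while *Xylt2* and the xylose kinase gene *Fam20b* were not called with all libraries kept. *Fam20b* was called higher in control cells without both control libraries numbered 4 (edgeR adjusted p = 0.0394; 0.0394 to 0.414 over all alternatives). Gene coordinates are those of GRCm39.

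Of the 6 genes for sulfate and sugar donors, 5 were lower with TNFα in control cells and 6 in *Notch2* tm1.1Ecan cells. *Slc26a2* (Ensembl ENSMUSG00000034320, chr18:61325989-61344706) encodes the sulfate transporter of the chondrocyte membrane. In control cells *Slc26a2* measured 165, 166, 155 and 160.3 CPM with vehicle and 47.6, 44.2, 39.2 and 74.8 CPM with TNFα. For *Notch2* tm1.1Ecan cells the values were 115, 121, 128 and 129 CPM with vehicle and 35.7, 37.3, 41.8 and 38.1 CPM with TNFα. Vehicle and TNFα libraries were widely separate in both genotypes, and control TNFα library 4 was the highest of the TNFα libraries. The log2 fold change was -1.64 (SE 0.21, edgeR adjusted p = 0.000828) in control cells, a 3.12-fold lower level, and -1.69 (SE 0.07, edgeR adjusted p = 2.75e-17) in *Notch2* tm1.1Ecan cells. Without both control libraries numbered 4, it was -1.89 (SE 0.06, edgeR adjusted p = 2.26e-19) in control cells.

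*Ugdh* (Ensembl ENSMUSG00000029201, chr5:65570551-65593805) encodes the dehydrogenase that makes UDP-glucuronic acid, a building block of both branches. Control libraries of *Ugdh* measured 223, 233, 238 and 211 CPM with vehicle and 107, 108, 110.2 and 138 CPM with TNFα. The *Notch2* tm1.1Ecan libraries held 188, 196, 212 and 205 CPM with vehicle and 101, 107, 106 and 94.9 CPM with TNFα. Every TNFα library was below every vehicle library, with control TNFα library 4 again the highest with TNFα. Log2 fold changes were -0.96 (SE 0.07, edgeR adjusted p = 3.91e-08) in control and -0.96 (SE 0.06, edgeR adjusted p = 6.01e-13) in *Notch2* tm1.1Ecan cells. *Papss2* (Ensembl ENSMUSG00000024899, chr19:32573055-32644589) encodes the synthase of the activated sulfate donor that predominates in cartilage. In the control groups *Papss2* measured 251, 242, 237 and 231 CPM with vehicle and 160.0, 164, 157 and 185 CPM with TNFα. Among *Notch2* tm1.1Ecan libraries it measured 159.9, 164, 156 and 169 CPM with vehicle and 125, 123, 129.7 and 129.7 CPM with TNFα. It was lower with TNFα in each genotype without overlap, and *Notch2* tm1.1Ecan vehicle libraries overlapped control TNFα libraries. The corresponding log2 fold changes were -0.52 (SE 0.05, edgeR adjusted p = 6.06e-08) and -0.36 (SE 0.06, edgeR adjusted p = 1.12e-05).

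The other 3 donor genes were *Papss1*, *Slc35d1* and *Slc35b2*, which encode a further sulfate donor synthase and the transporters of UDP-sugars and of activated sulfate. Their log2 fold changes ran from -0.85 to -0.07 in control cells, where 2 were called lower, and between -0.90 and -0.22 in *Notch2* tm1.1Ecan cells, where all 3 were. The call of *Slc35b2* in *Notch2* tm1.1Ecan cells, -0.22 (SE 0.07, edgeR adjusted p = 0.0110), was lost without *Notch2* tm1.1Ecan TNFα library 3 (edgeR adjusted p = 0.0502; 0.00491 to 0.0502 over all alternatives).

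All 6 chondroitin polymerization genes were lower with TNFα in both genotypes. *Chsy3* (Ensembl ENSMUSG00000058152, chr18:59308473-59669071) encodes a chondroitin synthase. Levels in control cells for *Chsy3* measured 37.7, 34.1, 34.4 and 34.3 CPM with vehicle and 9.06, 9.88, 9.56 and 17.3 CPM with TNFα. In *Notch2* tm1.1Ecan cells the values were 36.9, 38.0, 38.7 and 40.1 CPM with vehicle and 8.80, 7.89, 9.18 and 14.1 CPM with TNFα. No TNFα library reached any vehicle library, and library 4 was the highest of the TNFα libraries in each genotype. Its level was 3.01-fold lower in control cells, with a log2 fold change of -1.59 (SE 0.20, edgeR adjusted p = 0.000465), and 4.19-fold lower in *Notch2* tm1.1Ecan cells, with -2.07 (SE 0.11, edgeR adjusted p = 2.58e-15). The control value without both libraries numbered 4 was -1.89 (SE 0.09, edgeR adjusted p = 2.20e-16).

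*Csgalnact1* (Ensembl ENSMUSG00000036356, chr8:68809433-69188165) encodes the transferase that adds the committing N-acetylgalactosamine. In control cells *Csgalnact1* measured 229.8, 221, 228 and 211 CPM with vehicle and 127, 124, 122 and 152 CPM with TNFα. Levels in *Notch2* tm1.1Ecan libraries were 186, 197, 199 and 196 CPM with vehicle and 110.5, 109.6, 107 and 101 CPM with TNFα. Vehicle and TNFα groups were apart in both genotypes, and control TNFα library 4 was the highest of its group. TNFα gave log2 fold changes of -0.75 (SE 0.06, edgeR adjusted p = 2.68e-09) in control cells and -0.86 (SE 0.06, edgeR adjusted p = 1.82e-12) in *Notch2* tm1.1Ecan cells. *Chpf* (Ensembl ENSMUSG00000032997, chr1:75451206-75455951), the most abundant member per kilobase, changed less. In control cells *Chpf* measured 221, 227, 215 and 186 CPM with vehicle and 176, 167, 181 and 178 CPM with TNFα. The *Notch2* tm1.1Ecan values were 233, 217, 222 and 237 CPM with vehicle and 183, 188, 186 and 166 CPM with TNFα. Its TNFα libraries were all below its vehicle libraries in each genotype, with -0.27 (SE 0.05, edgeR adjusted p = 0.000350) in control cells and -0.32 (SE 0.06, edgeR adjusted p = 6.41e-05) in *Notch2* tm1.1Ecan cells. The remaining members, *Chsy1*, *Csgalnact2* and *Chpf2*, fell within -0.86 to -0.22 in control cells and -0.86 to -0.21 in *Notch2* tm1.1Ecan cells.

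Chondroitin sulfation genes moved in both directions with TNFα. *Chst11* (Ensembl ENSMUSG00000034612, chr10:82821180-83031734) encodes the 4-O sulfotransferase that cartilage depends on. In control cells *Chst11* measured 124, 122, 120.4 and 106 CPM with vehicle and 35.5, 38.5, 35.0 and 51.8 CPM with TNFα. With the *Notch2* tm1.1Ecan allele the same gene had 77.3, 81.0, 83.8 and 86.9 CPM with vehicle and 21.4, 28.4, 22.6 and 25.1 CPM with TNFα. The 4 groups were separate, highest in control vehicle and lowest in *Notch2* tm1.1Ecan TNFα libraries, with control TNFα library 4 the highest of its group. It was 2.91-fold lower with TNFα in control cells, at -1.54 (SE 0.13, edgeR adjusted p = 3.58e-05), and 3.39-fold lower in *Notch2* tm1.1Ecan cells, -1.76 (SE 0.08, edgeR adjusted p = 3.58e-16). Without both control libraries numbered 4 the control change was -1.74 (SE 0.06, edgeR adjusted p = 1.56e-20).

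*Chst15* (Ensembl ENSMUSG00000030930, chr7:131837507-131919201) encodes the enzyme that adds a further sulfate to N-acetylgalactosamine that is already 4-O sulfated. In control cells *Chst15* measured 7.52, 5.79, 6.37 and 12.6 CPM with vehicle and 48.5, 45.4, 51.2 and 44.7 CPM with TNFα. The *Notch2* tm1.1Ecan libraries had 8.82, 8.11, 8.04 and 8.95 CPM with vehicle and 57.1, 52.2, 59.0 and 55.4 CPM with TNFα. Every TNFα library was far above every vehicle library, and control vehicle library 4 was the highest of the vehicle libraries. The log2 fold change was 2.54 (SE 0.23, edgeR adjusted p = 9.93e-05) in control cells and 2.72 (SE 0.08, edgeR adjusted p = 2.43e-20) in *Notch2* tm1.1Ecan cells. Leaving out both control libraries numbered 4 gave 2.87 (SE 0.10, edgeR adjusted p = 4.71e-20), a 7.32-fold rise. *Ust* (Ensembl ENSMUSG00000047712, chr10:8080518-8394664) encodes the sulfotransferase for uronic acid in the chondroitin chain. In control cells *Ust* measured 21.9, 20.9, 22.0 and 26.7 CPM with vehicle and 30.9, 30.8, 29.3 and 26.9 CPM with TNFα. Its *Notch2* tm1.1Ecan libraries had 19.1, 19.0, 17.9 and 19.5 CPM with vehicle and 25.7, 28.4, 30.8 and 28.7 CPM with TNFα. Its TNFα libraries were above its vehicle libraries in both genotypes, narrowly so in control cells, where library 4 of each group lay nearest to the other group. Log2 fold changes were 0.37 (SE 0.08, edgeR adjusted p = 0.000965) in control and 0.59 (SE 0.08, edgeR adjusted p = 1.37e-06) in *Notch2* tm1.1Ecan cells.

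*Chst14* (Ensembl ENSMUSG00000074916, chr2:118756977-118759066), the 4-O sulfotransferase of dermatan sulfate and the most abundant of the role per kilobase, showed no call. In control cells *Chst14* measured 64.1, 64.8, 68.0 and 60.9 CPM with vehicle and 60.4, 61.9, 61.1 and 58.5 CPM with TNFα. For *Notch2* tm1.1Ecan the libraries held 68.8, 65.3, 64.6 and 69.7 CPM with vehicle and 62.1, 68.3, 62.3 and 64.0 CPM with TNFα. The values of all groups lay close together, and the log2 fold change with TNFα was -0.08 (SE 0.05, edgeR adjusted p = 0.214) in control and -0.06 (SE 0.07, edgeR adjusted p = 0.481) in *Notch2* tm1.1Ecan cells. *Chst13* (Ensembl ENSMUSG00000056643, chr6:90283926-90302447), a further 4-O sulfotransferase gene, had 0, 1, 4 and 1 counts in control vehicle libraries and 0, 0, 0 and 1 counts with TNFα. The *Notch2* tm1.1Ecan libraries of this gene had 5, 7, 2 and 4 counts with vehicle and 0, 1, 0 and 0 counts with TNFα. Most of these few counts lay in *Notch2* tm1.1Ecan vehicle libraries, which include the deepest library. With vehicle, the ratio of control to *Notch2* tm1.1Ecan cells, scaled to library size, was 0.507. Its 95% counting interval of 0.165 to 1.33 includes 1. The vehicle to TNFα ratio in *Notch2* tm1.1Ecan cells was 9.85 with a 95% counting interval of 1.55 to 410.3 and was called lower (edgeR adjusted p = 0.0308). DESeq2 did not call it (adjusted p = 0.0668), and edgeR did not without *Notch2* tm1.1Ecan vehicle library 1 (adjusted p = 0.0561) or 2 (0.0844), or without *Notch2* tm1.1Ecan TNFα library 1 (0.0898) or 3 (0.0986), within 0.0171 to 0.0986 over all alternatives. In control cells it fell short of the minimum of 10 counts and was not tested.

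Of the other 5 chondroitin sulfation and epimerization genes, 1 was higher and 1 lower in control cells, within -0.30 to 0.26 on the log2 scale, and in *Notch2* tm1.1Ecan cells 3 fell and 0 rose, within -0.61 to 0.04. The gene lower in both was *Chst12*, a 4-O sulfotransferase gene. The 6-O sulfotransferase genes *Chst3* and *Chst7* were called lower in *Notch2* tm1.1Ecan cells, at -0.61 (SE 0.17, edgeR adjusted p = 0.00483) and -0.51 (SE 0.11, edgeR adjusted p = 0.000453), and not in control cells, at -0.29 (SE 0.14, edgeR adjusted p = 0.103) and -0.21 (SE 0.12, edgeR adjusted p = 0.173). Vehicle and TNFα libraries of *Chst3* and of *Chst12* overlapped in *Notch2* tm1.1Ecan cells, where TNFα library 4, the shallowest, was the highest with TNFα for both genes. In control cells *Chst3* was called without control TNFα library 4 (edgeR adjusted p = 0.0422), and both were called without the libraries numbered 4 of both control groups, *Chst3* at an adjusted p of 0.0299 and *Chst7* at 0.0319. Over all alternatives the adjusted p in control cells was 0.0299 to 0.351 for *Chst3* and 0.0319 to 0.392 for *Chst7*. The epimerase gene *Dsel* was called higher in control cells, at 0.26 (SE 0.07, edgeR adjusted p = 0.00455), a call lost with all 16 libraries in the fit (edgeR adjusted p = 0.254; 0.000370 to 0.254 over all alternatives). It was not called in *Notch2* tm1.1Ecan cells, at 0.04 (SE 0.21, edgeR adjusted p = 0.912). *Dse*, the more abundant epimerase gene per kilobase, was called in neither genotype with all libraries kept, and lower in control cells without control TNFα library 4 (edgeR adjusted p = 0.0409) or both control libraries numbered 4 (0.0222; 0.0222 to 0.426 over all alternatives).

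Levels per kilobase were also summed by sulfation position. The 4-O sulfotransferases *Chst11*, *Chst12* and *Chst13* together were at 38.4 ± 1.75 CPM per kilobase in control vehicle and 21.3 ± 2.26 CPM per kilobase in control TNFα libraries (SD, n = 4). The 4-O sum in *Notch2* tm1.1Ecan cells was 32.7 ± 1.26 CPM per kilobase with vehicle and 19.9 ± 1.31 CPM per kilobase with TNFα. Both sums leave out the dermatan 4-O gene *Chst14*, at 30.8 ± 1.39 CPM per kilobase in control vehicle and 28.9 ± 0.705 CPM per kilobase in control TNFα libraries, and with that gene the fall would be a smaller share. The 6-O sulfotransferases *Chst3* and *Chst7* summed to 3.52 ± 0.322 and 2.97 ± 0.334 CPM per kilobase in control cells, and to 3.76 ± 0.314 and 2.59 ± 0.184 CPM per kilobase in *Notch2* tm1.1Ecan cells, with vehicle and TNFα in that order. The 6-O sum was thus the smaller by far in every group. The 6-O sum per 100 of the 4-O sum was 9.13 ± 0.470 with vehicle and 13.9 ± 0.829 with TNFα in control cells, and 11.5 ± 1.31 and 13.1 ± 1.20 in *Notch2* tm1.1Ecan cells, where vehicle and TNFα libraries overlapped. The level of *Chst15* per 100 of the same sum was 2.85 ± 1.25 and 30.1 ± 4.22 in control cells and 3.46 ± 0.0805 and 37.8 ± 3.70 in *Notch2* tm1.1Ecan cells, and the vehicle and TNFα libraries did not overlap. Both ratios are to the 4-O sum without *Chst14* and would be lower with that gene in every group. The change of the 6-O ratio with TNFα could then differ too. These sums are descriptions of RNA with no test, and sulfation itself was not measured.

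**Figure D2:**
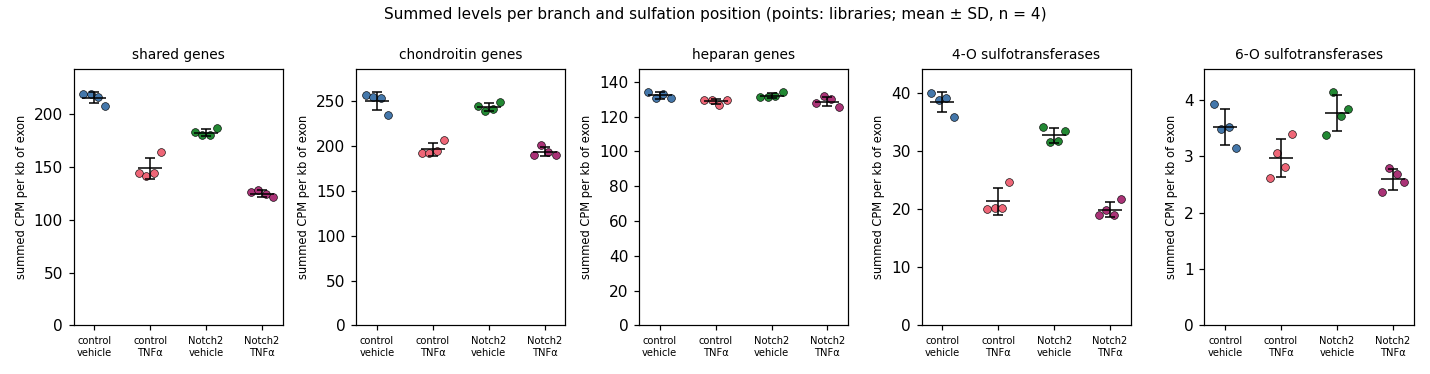
Summed CPM per kilobase of exon for the shared, chondroitin and heparan genes and for the 4-O and 6-O sulfotransferases, with 1 point per library and bars for the mean ± SD of 4 libraries. The 4-O sum, which leaves out *Chst14*, lies at 38.4 ± 1.75 in control vehicle and 21.3 ± 2.26 in control TNFα libraries, and the heparan sum at 132 ± 1.77 and 129 ± 1.42.

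Heparan polymerization genes moved in both directions. *Extl1* (Ensembl ENSMUSG00000028838, chr4:134080245-134111161) encodes an N-acetylglucosamine transferase of the exostosin family. In control cells *Extl1* measured 59.0, 55.1, 56.2 and 66.7 CPM with vehicle and 141, 151, 152 and 139 CPM with TNFα. The corresponding *Notch2* tm1.1Ecan values were 40.1, 34.1, 35.6 and 34.0 CPM with vehicle and 95.6, 96.5, 96.7 and 90.8 CPM with TNFα. The 4 groups were separate, with both TNFα groups above both vehicle groups and *Notch2* tm1.1Ecan cells below control cells under each treatment. Its level rose 2.47-fold with TNFα in control cells, 1.30 (SE 0.06, edgeR adjusted p = 5.37e-12) on the log2 scale, and 2.66-fold in *Notch2* tm1.1Ecan cells, 1.41 (SE 0.07, edgeR adjusted p = 9.89e-16). The gene it overlaps, *Slc30a2*, codes for protein on the opposite strand.

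*Ext1* (Ensembl ENSMUSG00000061731, chr15:52927434-53209602) and *Ext2* (Ensembl ENSMUSG00000027198, chr2:93491373-93653003) encode the partners of the heparan sulfate polymerase. In control cells *Ext1* measured 140.0, 138, 146 and 139.8 CPM with vehicle and 112, 126, 121 and 125 CPM with TNFα. Cells with the *Notch2* tm1.1Ecan allele gave 163, 164, 164 and 168 CPM with vehicle and 148, 149, 138 and 138 CPM with TNFα. Within each genotype the TNFα libraries were below the vehicle libraries, and *Notch2* tm1.1Ecan TNFα libraries overlapped control vehicle libraries. Log2 fold changes of *Ext1* with TNFα were -0.21 (SE 0.05, edgeR adjusted p = 0.00179) in control and -0.20 (SE 0.06, edgeR adjusted p = 0.00686) in *Notch2* tm1.1Ecan cells. In control cells *Ext2* measured 258, 255, 253 and 249 CPM with vehicle and 233, 228, 231 and 235 CPM with TNFα. Its values in *Notch2* tm1.1Ecan cells were 264, 246, 243 and 252 CPM with vehicle and 234, 236, 236 and 264 CPM with TNFα. Control TNFα libraries were all below control vehicle libraries, whereas the *Notch2* tm1.1Ecan groups overlapped and *Notch2* tm1.1Ecan TNFα library 4 was level with the highest vehicle library. *Ext2* gave -0.12 (SE 0.04, edgeR adjusted p = 0.0264) in control and -0.05 (SE 0.06, edgeR adjusted p = 0.511) in *Notch2* tm1.1Ecan cells. The control call was lost with all 16 libraries in the fit (edgeR adjusted p = 0.0540) and without control vehicle library 2 (0.0584) or 3 (0.0508) or control TNFα library 2 (0.0811) or 3 (0.0728), within 0.00372 to 0.0811 over all alternatives. Of *Extl2* and *Extl3*, which act early in the chain, *Extl2* was higher in both genotypes, at 0.37 (SE 0.07, edgeR adjusted p = 0.000247) and 0.51 (SE 0.08, edgeR adjusted p = 3.23e-06), and *Extl3* in neither.

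In heparan sulfation and epimerization, *Ndst1* (Ensembl ENSMUSG00000054008, chr18:60817566-60881766), the N-deacetylase and N-sulfotransferase gene that opens the modification of the chain, led per kilobase in control vehicle cells, within the spread of *Hs6st2* at 21.9 ± 0.920 CPM per kilobase, which was above it in control TNFα cells. In control cells *Ndst1* measured 218, 221, 214 and 206 CPM with vehicle and 171, 164, 158 and 182 CPM with TNFα. In *Notch2* tm1.1Ecan cells they were 226, 227, 225 and 235 CPM with vehicle and 181, 189, 188 and 177 CPM with TNFα. TNFα libraries were below vehicle libraries in each genotype. TNFα changed it by -0.34 (SE 0.05, edgeR adjusted p = 1.14e-05) in control and -0.31 (SE 0.06, edgeR adjusted p = 5.52e-05) in *Notch2* tm1.1Ecan cells on the log2 scale. Of the other 5 genes of the role, 2 were lower in control cells, within -0.49 to 0.14, and 1 in *Notch2* tm1.1Ecan cells, within -0.46 to 0.08. *Hs6st1*, a 6-O sulfotransferase gene of heparan sulfate, was lower in both, at -0.49 (SE 0.05, edgeR adjusted p = 1.43e-07) and -0.46 (SE 0.08, edgeR adjusted p = 1.02e-05). The call of the epimerase gene *Glce* in control cells, -0.15 (SE 0.06, edgeR adjusted p = 0.0392), was lost without control vehicle library 1 (edgeR adjusted p = 0.0758) or 2 (0.135) or control TNFα library 2 (0.114) or 3 (0.115), within 0.0130 to 0.135 over all alternatives. *Hs6st2* in control cells had -0.12 (SE 0.05, edgeR adjusted p = 0.0538) and was called without control vehicle library 2 (edgeR adjusted p = 0.0390) or 4 (0.0322) or control TNFα library 4 (0.0302), without both control libraries numbered 4 (0.0126), with DESeq2-type size factors in edgeR (0.0362), with a stricter count filter (0.0399) and by DESeq2 (adjusted p = 0.0322), within 0.0126 to 0.163 over all alternatives. *Ndst2* was called higher in control cells without control TNFα library 4 (edgeR adjusted p = 0.0409) or both control libraries numbered 4 (0.0424), with 0.14 (SE 0.07, edgeR adjusted p = 0.129) when all libraries were kept and 0.0409 to 0.464 over all alternatives. *Hs2st1* was called in neither genotype.

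By branch, the sum of the shared genes was 216 ± 5.46 CPM per kilobase in control vehicle and 149 ± 10.3 CPM per kilobase in control TNFα libraries, and 183 ± 3.07 and 125 ± 2.94 CPM per kilobase in *Notch2* tm1.1Ecan libraries (SD, n = 4). The chondroitin sum was 249.8 ± 10.1 and 196 ± 7.23 CPM per kilobase in control libraries and 243 ± 4.26 and 193 ± 5.11 CPM per kilobase in *Notch2* tm1.1Ecan libraries. The heparan sum was 132 ± 1.77 and 129 ± 1.42 CPM per kilobase in control libraries and 132 ± 1.35 and 129 ± 2.77 CPM per kilobase in *Notch2* tm1.1Ecan libraries. The shared and chondroitin sums were thus lower with TNFα in every library of a genotype, and so was the heparan sum in control cells, while in *Notch2* tm1.1Ecan cells its groups overlapped. Within it, the sum of the polymerization genes rose from 56.6 ± 0.329 to 63.0 ± 0.474 CPM per kilobase in control cells, and *Notch2* tm1.1Ecan libraries went from 58.1 ± 1.33 to 62.9 ± 0.566 CPM per kilobase. *Extl1*, whose level is uncertain because of its overlap, rose by more than that sum in each genotype, from 6.03 to 14.8 CPM per kilobase in control cells, so the other polymerization genes together fell. The sulfation and epimerization genes summed fell from 75.5 ± 1.59 to 65.8 ± 1.41 CPM per kilobase in control cells, and *Notch2* tm1.1Ecan libraries went from 74.0 ± 1.88 to 65.7 ± 2.71 CPM per kilobase. For each 100 units of the chondroitin sum there were 52.9 ± 1.84 units of heparan enzymes with vehicle and 65.8 ± 2.27 with TNFα in control cells, and 54.4 ± 0.669 and 66.6 ± 0.850 in *Notch2* tm1.1Ecan cells.

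**Figure D3:**
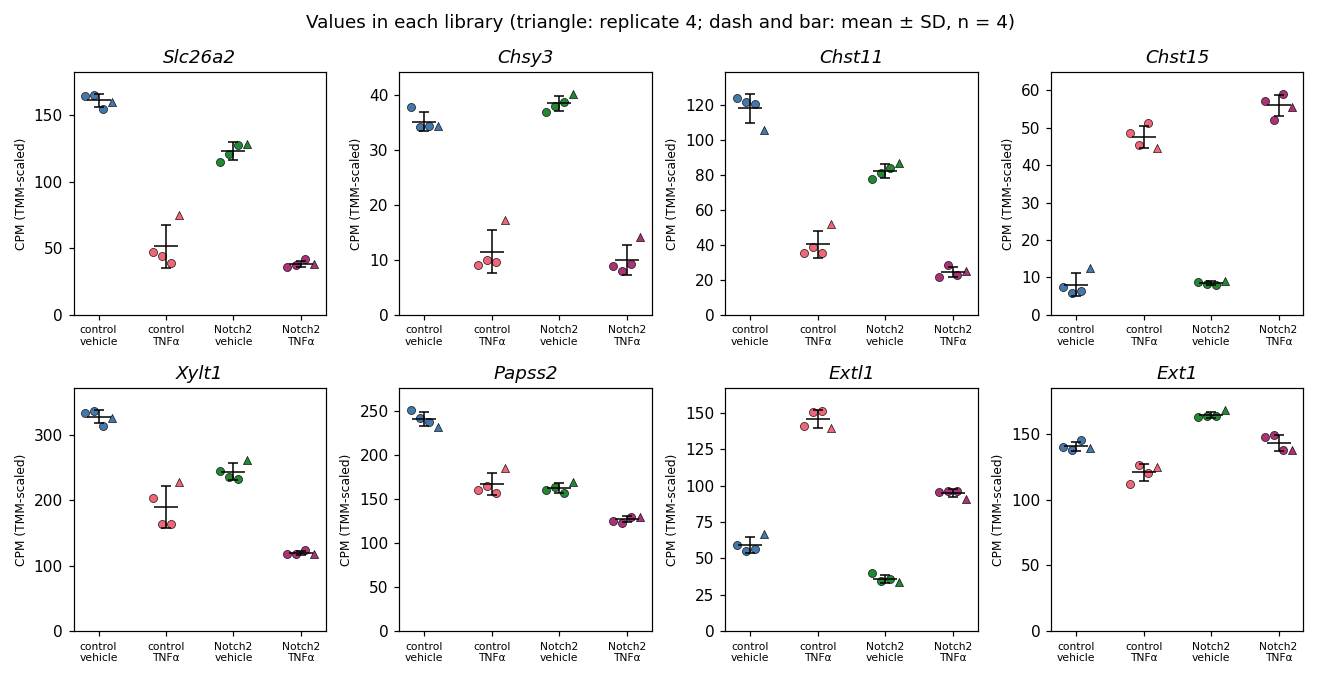
CPM in each of the 16 libraries for *Slc26a2*, *Chsy3*, *Chst11*, *Chst15*, *Xylt1*, *Papss2*, *Extl1* and *Ext1*, with 1 point per library and bars for the mean ± SD of 4 libraries per group. The other members given with their values are not drawn. *Chst15* lies at 8.07 ± 3.11 CPM in control vehicle and 47.5 ± 3.00 CPM in control TNFα libraries, and *Chst11* at 118 ± 8.22 and 40.2 ± 7.91 CPM.

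Cell type markers also moved with TNFα, and their part in the results was not tested. Of all genes tested, 23.3% were higher and 20.9% lower in control cells, and 22.6% and 21.9% in *Notch2* tm1.1Ecan cells. The chondrocyte list had 9 of 10 genes lower and 0 higher in each genotype. Its sum was 34223, 34831, 33957 and 39902 CPM in control TNFα libraries, against 49854, 48197, 48229 and 45701 CPM in control vehicle libraries. The sum in *Notch2* tm1.1Ecan libraries was 34009.8, 29200.4, 28935 and 31003 CPM with vehicle and 20896, 20028, 20526 and 18529.5 CPM with TNFα. The smooth muscle list, led by *Acta2*, had all 5 genes lower in each genotype, with sums of 1937 ± 119 and 1052 ± 95.9 CPM in control cells and 3767 ± 256 and 1993 ± 122 CPM in *Notch2* tm1.1Ecan cells. The hypertrophic chondrocyte and osteoblast list, led by *Spp1*, had 2 higher and 3 lower of 7 in control cells and 2 and 2 in *Notch2* tm1.1Ecan cells, with sums of 1384 ± 84.2 and 2312 ± 209 CPM in control and 957 ± 42.8 and 1785 ± 109 CPM in *Notch2* tm1.1Ecan cells. Of the macrophage list 3 of 9 were higher and 1 lower in control cells, and in *Notch2* tm1.1Ecan cells 6 of 10 rose and 1 fell. The fibroblast and perichondrium list had 4 higher and 1 lower of 8 in control cells, and 3 and 1 in *Notch2* tm1.1Ecan cells, or 5 and 1 there without *Notch2* tm1.1Ecan TNFα library 4. The endothelial list had 1 of 6 higher in control cells, and in *Notch2* tm1.1Ecan cells edgeR and DESeq2 each called 0, with 1 gene at an unadjusted p under 0.05 by each tool. The skeletal muscle list had 2 of 6 lower in control cells and 1 in *Notch2* tm1.1Ecan cells, or 2 without *Notch2* tm1.1Ecan TNFα library 4. By edgeR all 8 genes of the TNFα list were higher in each genotype, while DESeq2 called 3 in control cells and 8 in *Notch2* tm1.1Ecan cells. Without both control libraries numbered 4, these counts in control cells differed for smooth muscle alone, with 4 lower.

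*Notch2* tm1.1Ecan cells were compared with control cells under each treatment to ask what the NOTCH2 gain-of-function does to the enzymes before and after TNFα. The sulfate donor synthase *Papss2*, the chain starter *Xylt1*, the 4-O sulfotransferase *Chst11*, *Csgalnact1* and *Extl1* were lower in *Notch2* tm1.1Ecan cells under both treatments, and *Ext1* was higher. With vehicle, 10 of 39 members were lower, where 4.35% of all 19432 genes tested were lower, and 2 were higher, where 6.19% were. With TNFα, 7 of 38 members were lower, where 4.31% of 19227 genes were, and 3 were higher, where 5.63% were. Median log2 fold changes of the members were -0.01 with vehicle and -0.05 with TNFα, against 0.00 and -0.01 over all genes.

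By branch, the shared genes had 5 of 12 lower with vehicle and 3 with TNFα, and 0 higher under either, with medians of -0.13 and -0.17. The chondroitin branch had 3 lower and 0 higher of 16 with vehicle, and 3 lower and 1 higher of 15 with TNFα. The heparan branch had 2 lower and 2 higher of 11 with vehicle, and 1 lower and 2 higher with TNFα. Without control vehicle library 4, the comparison with vehicle gave 8 members lower and 1 higher. Without control vehicle library 3, it gave 6 lower. Leaving out a library also left 1 member higher when it was control vehicle library 1 or 2 or *Notch2* tm1.1Ecan vehicle library 4. With TNFα, 7 were lower and 1 higher without control TNFα library 4, and 5 were lower and 3 higher without *Notch2* tm1.1Ecan TNFα library 4. It gave 1 higher as well without control TNFα library 2 or *Notch2* tm1.1Ecan TNFα library 3. Over all genes, 5.78% were higher and 4.59% lower without control vehicle library 4, and 5.86% and 5.18% without control TNFα library 4.

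Among linkage and donor genes, *Xylt1* was lower in *Notch2* tm1.1Ecan cells, with a log2 fold change of -0.42 (SE 0.05, edgeR adjusted p = 2.11e-06) with vehicle and -0.66 (SE 0.10, edgeR adjusted p = 0.000253) with TNFα, and under each treatment the groups did not overlap. *Papss2* was at 162 ± 5.46 CPM against 240.3 ± 8.08 CPM with vehicle (SD, n = 4), -0.56 (SE 0.05, edgeR adjusted p = 1.79e-08), and with TNFα it gave -0.39 (SE 0.06, edgeR adjusted p = 9.10e-05). All *Notch2* tm1.1Ecan libraries of *Papss2* were below all control libraries under the same treatment. *Slc26a2* was lower with vehicle, -0.38 (SE 0.05, edgeR adjusted p = 1.16e-05), a call lost with all 16 libraries in the fit (edgeR adjusted p = 0.147; 2.83e-11 to 0.147 over all alternatives). With TNFα it gave -0.42 (SE 0.22, edgeR adjusted p = 0.350), where control TNFα library 4 alone stood far above the rest, and -0.19 (SE 0.08, edgeR adjusted p = 0.133) without it.

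*Fam20b* with TNFα had -0.18 (SE 0.06, edgeR adjusted p = 0.0578) and was called lower without control TNFα library 4 (edgeR adjusted p = 0.0225) or *Notch2* tm1.1Ecan TNFα library 2 (0.0486) with all 16 libraries in the fit (0.0240) and by DESeq2 (adjusted p = 0.0393), within 0.0225 to 0.146 over all alternatives. Both *Ugdh* and *Slc35d1* were near the limit of a call. *Ugdh* gave -0.17 (SE 0.05, edgeR adjusted p = 0.0428) with vehicle, with overlapping groups, and the call was lost with all 16 libraries in the fit (edgeR adjusted p = 0.107) and without control vehicle library 1 (0.0784), 2 (0.141) or 3 (0.162) or *Notch2* tm1.1Ecan vehicle library 2 (0.121) or 4 (0.0618), within 0.00687 to 0.162 over all alternatives. *Slc35d1* gave -0.26 (SE 0.08, edgeR adjusted p = 0.0372) with vehicle, lost with all 16 libraries in the fit (edgeR adjusted p = 0.103), with the replicate block (0.0515) and without control vehicle library 2 (0.0962), 3 (0.0657) or 4 (0.0661) or *Notch2* tm1.1Ecan vehicle library 2 (0.113), within 0.0243 to 0.113 over all alternatives. With TNFα it gave -0.43 (SE 0.13, edgeR adjusted p = 0.0334), lost with the replicate block (edgeR adjusted p = 0.0560) and without control TNFα library 2 (0.0703) or 4 (0.118) or *Notch2* tm1.1Ecan TNFα library 1 (0.0579), 3 (0.146) or 4 (0.0632), within 0.00622 to 0.146 over all alternatives.

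In the chondroitin branch, *Chst11* was 1.42-fold lower in *Notch2* tm1.1Ecan cells with vehicle, -0.51 (SE 0.06, edgeR adjusted p = 1.12e-06), and 1.65-fold lower with TNFα, -0.72 (SE 0.14, edgeR adjusted p = 0.00514). Every *Notch2* tm1.1Ecan library of *Chst11* was below every control library under the same treatment, and without control TNFα library 4 the difference with TNFα was -0.59 (SE 0.09, edgeR adjusted p = 3.25e-05). *Csgalnact1* was lower without overlap, at -0.18 (SE 0.05, edgeR adjusted p = 0.0135) with vehicle and -0.28 (SE 0.07, edgeR adjusted p = 0.00660) with TNFα. The vehicle call was lost without control vehicle library 1 (edgeR adjusted p = 0.0606) or 3 (0.0570), within 0.00112 to 0.0606 over all alternatives. *Csgalnact2*, which encodes a related transferase, was called lower with TNFα, -0.23 (SE 0.08, edgeR adjusted p = 0.0476), and the call was lost with DESeq2 (adjusted p = 0.0597), with DESeq2-type size factors in edgeR (0.0504), with a stricter count filter (0.0506) and without any 1 of control TNFα libraries 1, 2 and 3 and *Notch2* tm1.1Ecan TNFα libraries 1, 2 and 4 (edgeR adjusted p 0.0732 to 0.108), within 0.0211 to 0.108 over all alternatives.

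*Chst15* gave 0.07 (SE 0.21, edgeR adjusted p = 0.904) with vehicle, and 0.36 (SE 0.13, edgeR adjusted p = 0.0707) without control vehicle library 4, its highest control vehicle library. With TNFα it was higher in *Notch2* tm1.1Ecan cells, 0.25 (SE 0.07, edgeR adjusted p = 0.0163), with every *Notch2* tm1.1Ecan library above every control library. That call was lost with all 16 libraries in the fit (edgeR adjusted p = 0.345) and without control TNFα library 2 (0.0814) or 4 (0.0612) or *Notch2* tm1.1Ecan TNFα library 1 (0.0561) or 3 (0.0986), within 0.0106 to 0.345 over all alternatives. *Ust* was lower with vehicle, -0.27 (SE 0.08, edgeR adjusted p = 0.0443), where control vehicle library 4 was the highest, and gave -0.04 (SE 0.08, edgeR adjusted p = 0.821) with TNFα. The vehicle call was lost without any 1 of control vehicle libraries 1, 3 and 4 and *Notch2* tm1.1Ecan vehicle libraries 2, 3 and 4 (edgeR adjusted p 0.0590 to 0.144), within 0.0231 to 0.144 over all alternatives. *Chsy3* was not called, with 0.14 (SE 0.06, edgeR adjusted p = 0.202) with vehicle and -0.31 (SE 0.25, edgeR adjusted p = 0.550) with TNFα, or -0.05 (SE 0.15, edgeR adjusted p = 0.889) without control TNFα library 4, nor were *Chpf* and *Chst14*. *Dsel* with vehicle had 0.10 (SE 0.18, edgeR adjusted p = 0.830) and was called higher without *Notch2* tm1.1Ecan vehicle library 1 (edgeR adjusted p = 0.0146; 0.0146 to 0.972 over all alternatives).

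In the heparan branch, *Extl1* was 1.65-fold lower in *Notch2* tm1.1Ecan cells with vehicle, -0.72 (SE 0.07, edgeR adjusted p = 1.65e-07), and 1.52-fold lower with TNFα, -0.60 (SE 0.06, edgeR adjusted p = 2.00e-08). *Ext1* was higher, by 0.23 (SE 0.05, edgeR adjusted p = 0.00148) with vehicle and 0.26 (SE 0.06, edgeR adjusted p = 0.00443) with TNFα. Neither gene had overlapping genotypes under either treatment. *Extl3*, an initiating transferase gene, was called higher with vehicle, 0.18 (SE 0.05, edgeR adjusted p = 0.0240), and with TNFα, 0.19 (SE 0.06, edgeR adjusted p = 0.0351). The vehicle call was lost without control vehicle library 1, 2 or 4 or *Notch2* tm1.1Ecan vehicle library 4 (edgeR adjusted p 0.0540 to 0.0947), within 0.0148 to 0.0947 over all alternatives. The TNFα call was lost with the replicate block (edgeR adjusted p = 0.0914), without any 1 of the control TNFα libraries, or without *Notch2* tm1.1Ecan TNFα library 2 or 3 (edgeR adjusted p 0.0504 to 0.174), within 0.0124 to 0.174 over all alternatives. *Hs6st2* was lower with vehicle, -0.23 (SE 0.06, edgeR adjusted p = 0.00731), and with TNFα it had -0.17 (SE 0.06, edgeR adjusted p = 0.0725) and was called by DESeq2 (adjusted p = 0.0476; 0.0476 to 0.162 over all alternatives). *Ext2* and *Ndst1* were not called under either treatment, although every *Notch2* tm1.1Ecan vehicle library of *Ndst1* was above every control vehicle library.

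Markers of several cell types differed between the genotypes, and their part in the results was not tested. The shares over all genes tested were 6.19% higher and 4.35% lower with vehicle, and 5.63% and 4.31% with TNFα. All 10 chondrocyte genes were lower in *Notch2* tm1.1Ecan cells under each treatment with all libraries kept, 9 with vehicle without control vehicle library 4 and 8 with TNFα without *Notch2* tm1.1Ecan TNFα library 4, and the sums given above did not overlap between genotypes. Of the macrophage genes, led by *Lyz2*, 7 of 10 tested were higher with vehicle and 7 of 9 with TNFα. The macrophage sum was 68.3, 70.7, 71.5 and 66.1 CPM in control vehicle libraries and 131, 130.0, 131 and 115 CPM in *Notch2* tm1.1Ecan vehicle libraries. With TNFα it was 93.0, 82.1, 78.2 and 80.8 CPM in control and 173, 165, 156 and 153 CPM in *Notch2* tm1.1Ecan cells. Of 8 fibroblast and perichondrium genes, 6 were higher with vehicle and 7 with TNFα. Their sum was 38343, 37532, 35676 and 37297 CPM in *Notch2* tm1.1Ecan vehicle libraries, 32822, 30801, 30323 and 33393 CPM in control TNFα libraries and 39939, 40235, 42059.6 and 34124 CPM in *Notch2* tm1.1Ecan TNFα libraries.

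The smooth muscle list had all 5 genes higher in *Notch2* tm1.1Ecan cells with vehicle and 4 with TNFα. Its sum was 1961, 2044, 1973 and 1768 CPM in control vehicle and 4124, 3692, 3735 and 3518 CPM in *Notch2* tm1.1Ecan vehicle libraries. With TNFα it was 1031, 984, 999 and 1193 CPM in control and 1974, 1974, 1864 and 2159 CPM in *Notch2* tm1.1Ecan libraries. Of 6 endothelial genes, led by *Tek*, 4 were higher with vehicle and 3 with TNFα. The endothelial sum was 6.85, 8.15, 8.43 and 9.11 CPM in control vehicle and 16, 18.2, 18.5 and 20.6 CPM in *Notch2* tm1.1Ecan vehicle libraries. The values with TNFα were 10.4, 10.2, 12.1 and 9.15 CPM in control and 24.0, 19.8, 17.7 and 21.8 CPM in *Notch2* tm1.1Ecan libraries. Of 6 skeletal muscle genes, led by *Acta1*, 2 were higher with vehicle and 0 with TNFα by edgeR, where 2 had an unadjusted p under 0.05 and DESeq2 called 1, as edgeR did without control TNFα library 4, with sums of 22.5 ± 2.13 and 33.1 ± 2.38 CPM with vehicle and 11.4 ± 3.94 and 21.8 ± 9.21 CPM with TNFα. The hypertrophic chondrocyte and osteoblast list had 2 of 7 genes lower with vehicle and 2 of 6 with TNFα. Each gene of these lists passed 3 counts in at least 1 library. Of the 8 genes induced by TNFα, edgeR and DESeq2 each called 0 with vehicle, with 0 at an unadjusted p under 0.05, but 3 were higher and 1 lower without control vehicle library 4. With TNFα 3 were higher and 1 lower.

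Whether the response to TNFα differed between the genotypes was tested as an interaction over all 16 libraries. No member was called by edgeR's quasi-likelihood test, 0 of 39, where 0.267% of all 21321 genes were higher and 0.206% lower. At an unadjusted p under 0.05 there were 2 members by edgeR, *Papss2* and *Xylt1*, where 8.71% of all genes were. DESeq2 called 0 members and had 1, *Papss2*, at an unadjusted p under 0.05, where 7.62% of all genes were. *Papss2* had an interaction of 0.17 (SE 0.08, edgeR adjusted p = 0.572) on the log2 scale, a smaller fall in *Notch2* tm1.1Ecan cells, and *Xylt1* -0.24 (SE 0.11, edgeR adjusted p = 0.506), a larger fall. *Chst15* gave 0.18 (SE 0.22, edgeR adjusted p = 0.879) and *Chst11* -0.21 (SE 0.16, edgeR adjusted p = 0.762). Without both control libraries numbered 4, *Chst15* turned to -0.15 (SE 0.13, edgeR adjusted p = 0.862), *Chst11* gave -0.02 (SE 0.10, edgeR adjusted p = 0.995), *Xylt1* -0.14 (SE 0.09, edgeR adjusted p = 0.756) and *Papss2* 0.24 (SE 0.08, edgeR adjusted p = 0.195). The lowest adjusted p of any member was 0.506 by edgeR and ran from 0.148 to 0.600 over all alternatives, and 0 members were called without both control libraries numbered 4. The members called in a single genotype are therefore not shown to respond differently. The comparisons within a genotype and within a treatment share libraries with each other and are not independent of one another. Among the cell type markers, edgeR called *Matn1* of the chondrocyte list, -0.41 (SE 0.09, edgeR adjusted p = 0.0305), and *Cnn1* of the smooth muscle list, -0.68 (SE 0.15, edgeR adjusted p = 0.0305). By edgeR without both control libraries numbered 4, the chondrocyte list had 0 calls and the smooth muscle list 1. With all libraries kept, DESeq2 called 1 gene in each of these lists. It also called 1 of the fibroblast and perichondrium list, where edgeR called 0.

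Other genes of glycosaminoglycan metabolism were counted in the same comparisons. Of those named, *Ugp2*, *Idua*, *Hpse*, *Acan* and *Sulf2* share exon sequence with a gene on the opposite strand, as do the markers *Icam1*, *Acta1*, *Acta2* and *Cnn1*, so their levels carry the doubt about strand given above. In a list of 16 genes for sugar nucleotide and sulfate supply, 12 were lower and 0 higher with TNFα in control cells. Their median log2 fold change was -0.48. In *Notch2* tm1.1Ecan cells 12 were lower and 1 higher, with a median of -0.54. Over all genes, 20.9% were lower and 23.3% higher in control cells, and 21.9% and 22.6% in *Notch2* tm1.1Ecan cells. *Ugp2*, which makes UDP-glucose, gave -0.88 (SE 0.05, edgeR adjusted p = 2.58e-11) in control and -0.91 (SE 0.19, edgeR adjusted p = 0.00568) in *Notch2* tm1.1Ecan cells. Between genotypes this list had 1 higher and 1 lower with vehicle, where 6.19% and 4.35% of all genes were. With TNFα it had 1 higher and 0 lower, where 5.63% and 4.31% were, or 2 higher without *Notch2* tm1.1Ecan TNFα library 4. The higher gene with all libraries kept was the linkage phosphatase gene *Pxylp1*, at 0.37 (SE 0.07, edgeR adjusted p = 0.000790) with vehicle and 0.32 (SE 0.08, edgeR adjusted p = 0.0117) with TNFα.

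More lysosomal degradation genes were called higher than lower with TNFα. Of 13 tested from a list of 14, 8 were higher and 1 lower in control cells, their median log2 fold change being 0.33, and in *Notch2* tm1.1Ecan cells 7 rose and 1 fell, with a median of 0.25, where 23.3% and 22.6% of all genes tested were higher. *Idua*, an iduronidase gene for dermatan and heparan sulfate, rose from 28.8 ± 0.592 to 43.4 ± 2.07 CPM in control cells, 0.60 (SE 0.06, edgeR adjusted p = 6.73e-08), and from 25.9 ± 1.38 to 44.1 ± 5.56 CPM in *Notch2* tm1.1Ecan cells, 0.74 (SE 0.08, edgeR adjusted p = 1.87e-08). The heparanase gene *Hpse* gave 0.64 (SE 0.16, edgeR adjusted p = 0.00277) in control and 0.57 (SE 0.19, edgeR adjusted p = 0.0155) in *Notch2* tm1.1Ecan cells. Between genotypes edgeR and DESeq2 called 0 under either treatment, with 5 genes at an unadjusted p under 0.05 with vehicle by each tool, and 2 with TNFα by edgeR and 1 by DESeq2. Without control vehicle library 4, 1 was lower with vehicle. In the TNFα comparison of control cells without both libraries numbered 4, this list had 8 higher and 2 lower, the supply list 0 higher and 12 lower, the core proteins 7 higher and 6 lower and the further heparan enzymes 2 higher and 1 lower.

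Core proteins that carry the chains went both ways, as all genes tested did. Of 18 tested from a list of 19, 7 were higher and 6 lower with TNFα in control cells, and in *Notch2* tm1.1Ecan cells 10 rose and 5 fell. The shares over all genes were 23.3% higher and 20.9% lower in control cells, and 22.6% and 21.9% in *Notch2* tm1.1Ecan cells. *Acan*, the aggrecan gene and also a chondrocyte marker, was at 1679 ± 87.3 CPM with vehicle and 663 ± 163 CPM with TNFα in control cells and at 1041 ± 53.1 and 371 ± 11.7 CPM in *Notch2* tm1.1Ecan cells. Its log2 fold change with TNFα was -1.33 (SE 0.17, edgeR adjusted p = 0.000943) in control and -1.49 (SE 0.06, edgeR adjusted p = 7.57e-18) in *Notch2* tm1.1Ecan cells, and between genotypes it was -0.68 (SE 0.05, edgeR adjusted p = 2.12e-09) with vehicle and -0.82 (SE 0.16, edgeR adjusted p = 0.0195) with TNFα. *Srgn*, the serglycin gene, rose with TNFα, 1.70 (SE 0.23, edgeR adjusted p = 2.77e-06) in control and 2.17 (SE 0.23, edgeR adjusted p = 1.18e-08) in *Notch2* tm1.1Ecan cells, from a level of 1.56 ± 0.734 CPM in control vehicle cells. Between genotypes 2 core protein genes were higher and 4 lower with vehicle, and 3 higher and 5 lower with TNFα. Over all genes, 6.19% were higher and 4.35% lower with vehicle, and 5.63% and 4.31% with TNFα.

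A list of 12 heparan enzymes outside the 39 had 9 tested in control cells, with 2 higher and 1 lower with TNFα. In *Notch2* tm1.1Ecan cells 7 were tested, with 2 higher and 0 lower. Of all genes tested, 23.3% were higher and 20.9% lower in control cells, and 22.6% and 21.9% in *Notch2* tm1.1Ecan cells. The higher genes of the list were the extracellular sulfatase genes *Sulf1* and *Sulf2*, which trim heparan sulfate after synthesis. Without control TNFα library 4 the count in control cells was 1 higher and 1 lower of 7. *Sulf1* was at 382 ± 8.10 and 439 ± 29.3 CPM in control cells and 312 ± 5.87 and 355 ± 11.4 CPM in *Notch2* tm1.1Ecan cells, with vehicle and TNFα in that order. It was the gene called lower in *Notch2* tm1.1Ecan cells under each treatment, -0.28 (SE 0.05, edgeR adjusted p = 0.000126) with vehicle and -0.29 (SE 0.06, edgeR adjusted p = 0.00163) with TNFα.

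Promoter windows of 300 bases around the start of a gene were taken from RefSeq (GRCm38.p6) for 32 of the 39 members, which have 39 windows, and 32851 windows in all were searched on both strands. The RBPJ core TGGGAA was in 4 of the 39 member windows, 10.3%, against 25.6% of all windows. The AP-1 motif TGANTCA was in 1, or 2.56%, against 7.81%, and the NF-κB motif was in 4, or 10.3%, against 4.51%. Matches of the RBPJ core and of the NF-κB motif can share letters. No window was held for *Xylt1*, *Slc26a2*, *Csgalnact1*, *Chsy3*, *Ext1*, *Extl3* and *Ndst1*. Of the members with the largest called changes, windows are shown for *Chst15* (chr7:132317179-132317478 on the minus strand), *Extl1* (chr4:134372498-134372797 on the minus strand) and *Chst11* (chr10:82985247-82985546 on the plus strand), in which none of the 3 motifs was found, and for *Ust* (chr10:8518776-8519075 on the minus strand) and *Papss2* (chr19:32595465-32595764 on the plus strand), in which capitals mark a match to the NF-κB motif. Not shown are *Ugdh*, whose window holds none of the 3 motifs, *Chst13*, with few counts, whose window holds 2 RBPJ cores, and a second window of *Papss2* with 1 RBPJ core. Each window shown is the first of its gene and runs 5′ to 3′. A match or its absence describes these letters only.
*Chst15*: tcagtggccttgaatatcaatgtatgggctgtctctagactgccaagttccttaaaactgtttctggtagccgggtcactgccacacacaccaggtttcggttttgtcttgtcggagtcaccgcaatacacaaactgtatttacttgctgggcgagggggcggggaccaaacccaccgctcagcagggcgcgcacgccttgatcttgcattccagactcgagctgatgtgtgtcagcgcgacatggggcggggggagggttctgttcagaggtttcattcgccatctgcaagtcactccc
*Extl1*: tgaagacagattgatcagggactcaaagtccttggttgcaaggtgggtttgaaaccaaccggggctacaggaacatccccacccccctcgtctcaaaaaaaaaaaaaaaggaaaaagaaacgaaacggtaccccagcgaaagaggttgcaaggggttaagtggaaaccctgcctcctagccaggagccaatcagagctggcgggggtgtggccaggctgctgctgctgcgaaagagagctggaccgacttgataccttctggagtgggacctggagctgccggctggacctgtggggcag
*Chst11*: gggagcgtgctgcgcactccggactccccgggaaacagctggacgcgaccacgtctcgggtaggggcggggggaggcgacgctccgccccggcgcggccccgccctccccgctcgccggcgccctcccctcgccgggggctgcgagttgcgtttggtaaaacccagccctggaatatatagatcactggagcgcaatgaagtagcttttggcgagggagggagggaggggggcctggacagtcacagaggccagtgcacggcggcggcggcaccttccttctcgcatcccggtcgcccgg
*Ust*: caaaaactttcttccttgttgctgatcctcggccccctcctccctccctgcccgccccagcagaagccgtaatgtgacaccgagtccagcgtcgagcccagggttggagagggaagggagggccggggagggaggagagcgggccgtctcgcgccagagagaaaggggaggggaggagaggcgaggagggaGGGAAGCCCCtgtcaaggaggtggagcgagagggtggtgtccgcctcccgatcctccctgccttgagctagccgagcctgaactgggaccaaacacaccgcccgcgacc
*Papss2*: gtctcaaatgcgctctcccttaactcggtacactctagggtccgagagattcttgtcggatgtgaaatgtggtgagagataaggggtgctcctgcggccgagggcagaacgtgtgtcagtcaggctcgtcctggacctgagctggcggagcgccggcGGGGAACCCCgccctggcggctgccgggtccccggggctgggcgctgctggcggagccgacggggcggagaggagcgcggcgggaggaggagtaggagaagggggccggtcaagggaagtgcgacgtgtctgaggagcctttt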

How the data were processed

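The authors deposited 1 file of raw counts per library, made by them with htseq-count from paired reads of 75 bases aligned with HISAT2, covering 55414 Ensembl genes. Reads that htseq-count could not assign, 8.81 to 12.1% of a library under 5 headings, were left out. The labels give GRCm38 as the build, whereas the methods of the study give GRCm39. Identifiers were matched to GENCODE M39 on GRCm39, and 665 without a match held 0.0182% of the counts. Counts on genes ran from 3439726 to 44237300 per library with a median of 17062419, and intervals on counts cover counting error only.

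The 4 comparisons each used the 8 libraries compared, and the interaction used all 16. Genes with at least 10 counts over the libraries compared were tested by edgeR 4.0.16 (TMM scaling, robust quasi-likelihood F test, Benjamini-Hochberg adjustment over all genes tested) in R 4.3.3. When tested on simulated data, this procedure made more false calls than its threshold allows in each of the 4 comparisons, so calls near the threshold are less certain. CPM are scaled by TMM over 16 libraries, and levels per kilobase divide by the union of annotated exons. Python 3.11.15, pandas 2.3.3, numpy 2.4.6, SciPy 1.17.1 and matplotlib 3.10.9 were used for summaries and figures. Alternatives were DESeq2 1.42.0, its size factors in edgeR (RLE), filterByExpr, a minimum of 1 count, all 16 libraries in each fit, a replicate block, a log2 fold change of at least 1, an adjusted p under 0.1, and leaving out each library or both control libraries numbered 4.

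Members and lists were chosen with earlier results of these data known. Given with values in every library were, per comparison, up to 6 called members with the largest fold change and no overlap between groups, and the most abundant member per kilobase of each role, 16 in all. Other members named were chosen after their values were seen. From the other lists, genes among the 3 largest called changes could be named.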

Additional observations from a re-analysis of the deposited data

Results flagged for a closer look

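In 19 of 154 groups of 4 libraries, the highest or lowest value of a member lay so far from the others that the gap to the nearest, as a share of the range of the group, was above Dixon's 95% critical value. Chance gives about 1 in 20 such groups. Values are in CPM, and the causes were not tested.

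In control TNFα library 4, *Ugdh* was the highest of its group at 138 CPM against 107 to 110.2 CPM, with a gap of 0.907 of the range. *Csgalnact1* had 152 CPM there against 122 to 127 CPM, with a gap of 0.846. *Chsy1* had 85.0 CPM there against 64.0 to 65.2 CPM, with a gap of 0.94. *Chsy3* had 17.3 CPM there against 9.06 to 9.88 CPM, with a gap of 0.901. *Dse* had 202 CPM there against 185 to 187 CPM, with a gap of 0.889. In *Notch2* tm1.1Ecan TNFα library 4, *Xylt2* was the highest of its group at 46.3 CPM against 41.4 to 41.5 CPM, with a gap of 0.982 of the range. *Chst3* had 6.62 CPM there against 3.84 to 3.86 CPM, with a gap of 0.992. *Chst12* had 83.0 CPM there against 71.0 to 72.7 CPM, with a gap of 0.858. *Ext2* had 264 CPM there against 234 to 236 CPM, with a gap of 0.932. In control TNFα library 1, *B4galt7* was the highest of its group at 31.1 CPM against 27.3 to 27.9 CPM, with a gap of 0.85 of the range. *Extl2* had 53.7 CPM there against 42.6 to 44.0 CPM, with a gap of 0.881.

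In *Notch2* tm1.1Ecan vehicle library 1, *Dsel* was the lowest of its group at 19.6 CPM against 33.2 to 35.4 CPM, with a gap of 0.862 of the range. *Hs6st2* had 129 CPM there against 148 to 152 CPM, with a gap of 0.833. In *Notch2* tm1.1Ecan vehicle library 4, *Ext1* was the highest of its group at 168 CPM against 163 to 164 CPM, with a gap of 0.839 of the range. *Ndst1* had 235 CPM there against 225 to 227 CPM, with a gap of 0.843. In *Notch2* tm1.1Ecan TNFα library 3, *Xylt1* was the highest of its group at 124 CPM against 117 to 118 CPM, with a gap of 0.882 of the range. In control vehicle library 1, *Chsy3* was the highest of its group at 37.7 CPM against 34.1 to 34.4 CPM, with a gap of 0.93 of the range. In *Notch2* tm1.1Ecan vehicle library 2, *Ndst2* was the lowest of its group at 38.4 CPM against 41.9 to 42.2 CPM, with a gap of 0.917 of the range. In control vehicle library 4, *Hs2st1* was the highest of its group at 65.5 CPM against 60.1 to 60.4 CPM, with a gap of 0.949 of the range.

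Control TNFα library 4 held 5 of the 19 values and *Notch2* tm1.1Ecan TNFα library 4, the shallowest, held 4.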

How the results depend on the processing

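No called member changed direction under any alternative run. Of the 86 results for single members (each call, and each value that crossed the threshold under an alternative), 83 kept their side of the threshold with the replicate block, which paired libraries by their number, and 3 calls were lost, *Slc35d1* under both treatments (adjusted p = 0.0515 with vehicle and 0.0560 with TNFα) and *Extl3* with TNFα (0.0914), in the comparison of genotypes. With the block 5 members were higher and 22 lower with TNFα in control cells, 4 and 24 in *Notch2* tm1.1Ecan cells, 2 and 9 between genotypes with vehicle and 2 and 6 with TNFα, and 0 and 0 for the interaction. Libraries of the same number showed no pairing, with correlations from -0.051 to 0.041. DESeq2 left 81 results on their side, and all 16 libraries in each fit left 79. Medians of the shared, chondroitin and heparan members, taken per comparison and alternative, moved by less than the spread between libraries in 235 cases and by more in 2, the chondroitin median with TNFα in control cells without both control libraries numbered 4 (-0.33) and the heparan median between genotypes with vehicle without control vehicle library 3 (-0.01).

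Requiring a log2 fold change of at least 1 left 2 members higher and 3 lower with TNFα in control cells, of 2279 genes called, and 2 and 5 in *Notch2* tm1.1Ecan cells, of 2720. Between genotypes it left 0 and 0 members of 244 genes with vehicle, and 0 and 0 of 272 with TNFα, and 10 genes for the interaction, fewer by construction. For the interaction DESeq2 called 174 genes and a minimum of 1 count 266, against 101, and leaving out a library gave 51 to 156. The causes were not tested.

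Leaving out each library in turn gave 5 to 6 members higher and 20 to 25 lower with TNFα in control cells, and 4 higher and 22 to 24 lower in *Notch2* tm1.1Ecan cells. Between genotypes it gave 1 to 3 higher and 6 to 10 lower with vehicle, and 1 to 3 higher and 5 to 7 lower with TNFα. Few counts limit what can be said of *Chst13*, and with 4 libraries a group small differences can be missed.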
